A study of Mus musculus with 6 samples.

Results

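The genes described here encode Chmp6 and 8 other charged multivesicular body proteins of the ESCRT-III family, compared between liver tumors and normal livers of mice. The members were the 9 genes Chmp1a, Chmp1b, Chmp2a, Chmp2b, Chmp4b, Chmp4c, Chmp5, Chmp6 and Chmp7, of 34741 gene names on the array. They were found by the gene name of each probe that is not a control, or by the current symbol of its accession, which gave 14 of the 55681 probes. Chmp6 is among the genes that the study short-listed on these same samples, so its own change is not independent evidence.

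Total RNA came from 3 normal livers and 3 liver tumors of male C3H/HeN mice, a strain prone to spontaneous liver tumors in adulthood. All of the mice were 74 to 75 weeks old and on standard diet and tap water, and were second-generation offspring in the control arm of a project on arsenic in gestation. By the study's methods each tumor carried a Ha-ras mutation, and the tumors were taken as macroscopic tissue. Each RNA was labelled with Cy3 and hybridized to 1 SurePrint G3 Mouse GE array, a 1-color oligonucleotide array. Between 44.7% and 48.9% of the non-control spots of an array were well above background, and 0 of these spots were saturated. The labels do not say that the samples of a group came from separate animals, so the p-values measure only the spread between these samples, which may be technical. All normal livers lay on slide 1 and all tumors on slide 2. Effects of slide and of tissue therefore cannot be told apart, and the median local background was 42 to 45 on slide 1 and 22 to 23 on slide 2. Hepatocyte markers were bright on all arrays, with a summed expression value of 8771 to 9592 in the normal livers and 8764 to 9284 in the tumors.

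As background, ESCRT-III proteins are soluble monomers in the cytosol that polymerize into filaments on membranes. The filaments narrow and cut membrane necks that bud away from the cytosol, and the ATPase Vps4 takes them apart again. The machinery is known for sorting ubiquitinated receptors into multivesicular bodies, for the last cut of cytokinesis, for closing the nuclear envelope and for repair of the plasma membrane. Upstream complexes named ESCRT-0, ESCRT-I and ESCRT-II gather cargo and recruit the filament to endosomes.

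Of the 9 genes, Chmp6 and Chmp2b rose in the liver tumors and none fell. Chmp4c was called higher as well, but its brightest probe passed the filter on dim probes only through the tumors, and without that filter it was not called (adjusted p = 0.0550 in limma). The other 6 genes did not pass the test. Each gene was represented by its brightest probe, the one whose log2 signal was highest on average, and a gene was called when limma's adjusted p over all tested probes was under 0.05. By the same rule 34.1% of the 18545 genes tested were called, 13.1% higher and 21.0% lower, so that 3 of 9 in either direction, Chmp4c included, was near the background. Among the 8 genes whose brightest probe was well above background on all 6 arrays, 2 were called. The median log2 fold change was 0.20 over the 9 genes and -0.13 over all genes tested. In 6 of the 9 genes the values of the groups did not overlap, beside 51.8% of all genes tested. All 14 probes passed the filter, for which a probe had to be well above background on every array of the normal livers or on every array of the tumors. The 3 Chmp4c probes passed through the tumors only, so their calls are not counted as support.

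**Figure D1:**
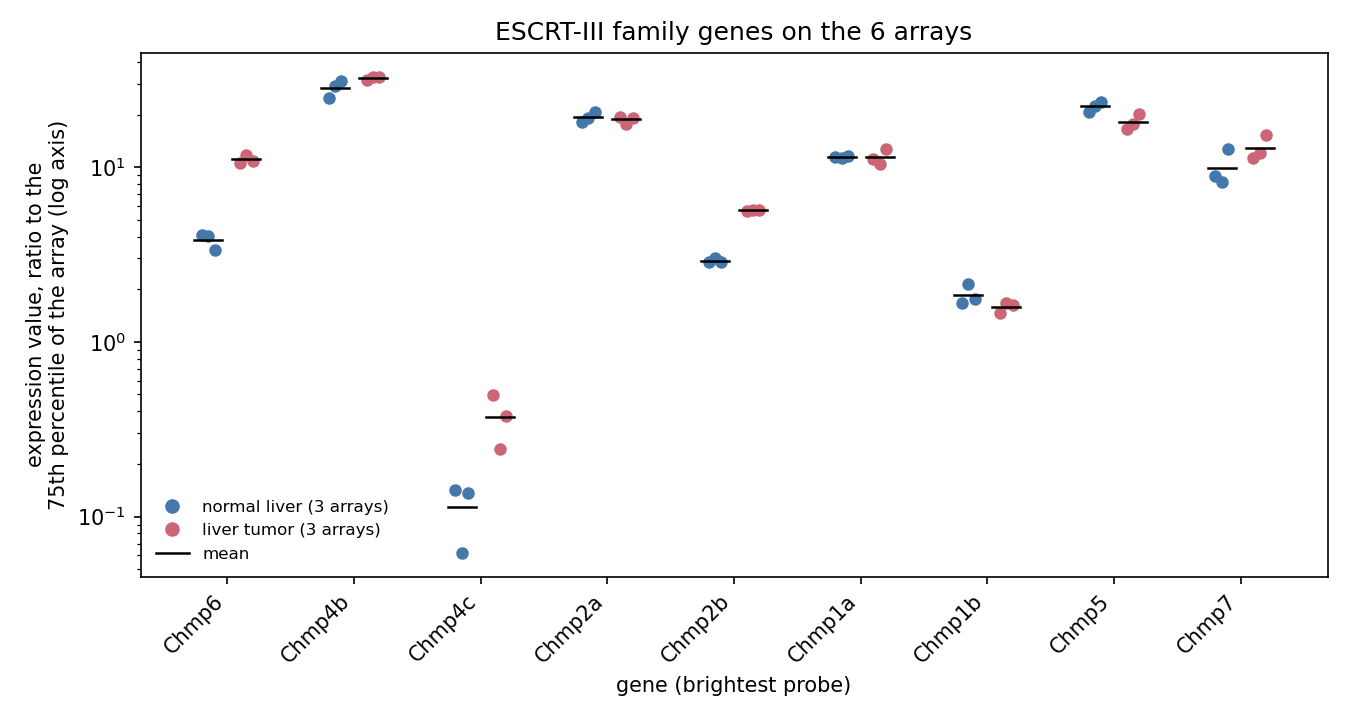
Expression value of the 9 ESCRT-III family genes on each of the 6 arrays, as the ratio of the processed signal of the brightest probe to the 75th percentile of the array, on a log axis. Points are arrays and bars are group means. The 3 tumors lay above the 3 normal livers for Chmp6, Chmp2b, Chmp4c and, narrowly, Chmp4b, and below them for Chmp5 and Chmp1b. Chmp4b, Chmp5 and Chmp1b were not called. The groups overlapped for Chmp2a, Chmp1a and Chmp7. Levels of different probes are not comparable.

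Chmp6 is the mammalian Vps20, a myristoylated subunit that links ESCRT-II to the growing filament. The gene lies on chromosome 11 from 119913409 to 119919552 in the RefSeq annotation of GRCm38.p6, and it was measured by 2 probes. For the brighter probe, A_66_P121474, the expression value, which is the processed signal relative to the 75th percentile of the array, was 4.11, 4.05 and 3.38 in normal livers 1 to 3. It was 10.6, 11.7 and 10.9 in tumors 1 to 3. Every tumor was therefore far above every normal liver, and the spread within each group was small against the gap. The group means were 3.85 ± 0.407 (SD, n = 3) and 11.1 ± 0.596 (SD, n = 3). The log2 fold change was 1.53 (SE 0.12, 95% confidence interval 1.23 to 1.83, adjusted p = 6.02e-04 in limma), a 2.89-fold rise. A change at least as high was seen in 5.11% of the genes tested.

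The second Chmp6 probe, A_55_P2098300, read 1.09, 1.08 and 0.962 in the normal livers and 2.41, 2.81 and 2.57 in the tumors. Its log2 fold change was 1.31 (SE 0.12, adjusted p = 8.34e-04 in limma). On both probes tumor 2 was the highest array and normal liver 3 the lowest, and over the 6 arrays the log2 values of the probes correlated at 0.999. That correlation is a description of 6 points that share their libraries. An exact permutation test over the 6 arrays gave a two-sided p of 0.1 for each Chmp6 probe, the smallest that 3 against 3 samples allow.

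The array also carries a probe, A_55_P1979315, whose design entry describes a transcript similar to Chmp6, and the end of the Chmp6 probe resembles its beginning. Only these probes were aligned. The transcript itself and the brighter Chmp6 probe, A_66_P121474, were not compared, so what the Chmp6 signal could share with that transcript was not tested. Both sequences are given to show where the probes resemble each other, with the 29 aligned bases in capitals:
Chmp6 probe A_55_P2098300: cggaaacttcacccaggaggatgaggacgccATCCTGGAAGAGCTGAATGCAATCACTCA
Chmp6-like probe A_55_P1979315: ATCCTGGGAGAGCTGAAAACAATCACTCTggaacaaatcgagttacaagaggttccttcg
Of the 29 aligned bases 25 were identical, and the differences were A39G, T49A, G50A and A60T, with the base of the Chmp6 probe first and positions counted from 1 at its 5′ end. The Chmp6-like probe did not pass the background on any of the 6 arrays, where it read between 0.0254 and 0.0705. Its values in normal livers and tumors overlapped. It was not counted among the 14 probes.

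Both Chmp6 probes had a ratio of arithmetic means of at least 2, with 2.88 and 2.49, and a mean expression value above 1.0 in a group. Their unadjusted p was under 0.05 in the methods' t-test, whether paired or unpaired. The methods state a paired test without naming the pairs, and the replicate number was used for them here. None of the other 8 genes met these criteria in either form. Chmp2b missed the fold criterion with a ratio of 1.94, and Chmp4c missed the expression threshold on each of its 3 probes. The rise of Chmp6 was called in all alternatives that were run except the methods' t-test in its paired form, which called 0 of 24900 probes (adjusted p of Chmp6 = 0.0955, and 7681 probes with an unadjusted p under 0.05).

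**Figure D2:**
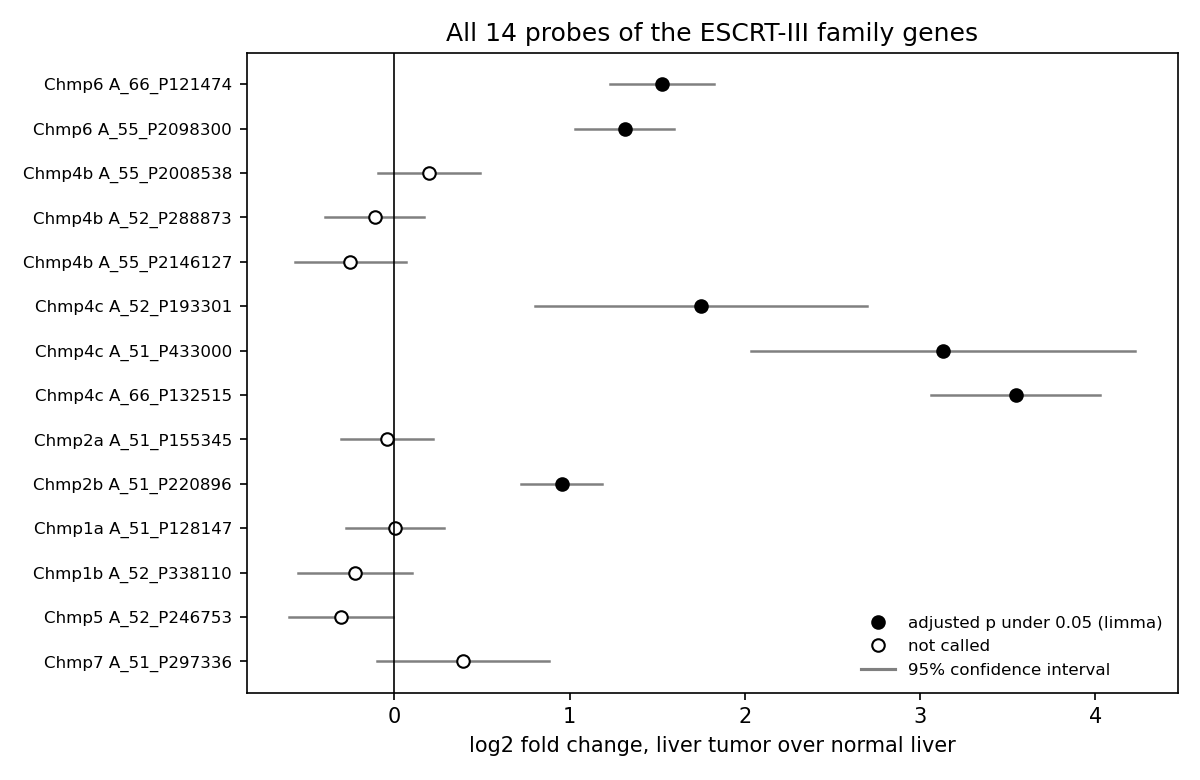
Log2 fold change of each of the 14 probes of the ESCRT-III family genes, liver tumor over normal liver, with its 95% confidence interval; filled points have limma's adjusted p under 0.05. Both probes of Chmp6, the probe of Chmp2b and the 3 probes of Chmp4c lay above 0 and were called, while the 3 probes of Chmp4b lay on both sides of 0. Of the Chmp4c probes, A_51_P433000 and A_66_P132515 did not pass the background in the normal livers, so that their fitted values are not measured folds.

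Chmp4 proteins are the mammalian Snf7 and form the bulk of the filament. Chmp4b, on chromosome 2 from 154657026 to 154694783, was measured by 3 probes that differed in direction. Its brightest probe, A_55_P2008538, read 24.9, 29.3 and 31.1 in the normal livers and 31.7, 32.9 and 32.8 in the tumors. The tumors lay just above the highest normal liver, and the log2 fold change was 0.20 (SE 0.12, adjusted p = 0.256 in limma). The log2 fold changes of the other probes were -0.11 (adjusted p = 0.499) and -0.25 (adjusted p = 0.188) in the same limma fit, and on both the groups overlapped. With quantile normalization the brightest probe passed the threshold, with 0.37 and an adjusted p of 0.0449. A direction for Chmp4b thus depended on the probe.

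Chmp4c is the Chmp4 protein that delays the final cut of cytokinesis while chromatin remains in the bridge, as a target of Aurora B. The gene lies on chromosome 3 from 10366973 to 10391005. Its signal was dim, and all 3 probes read higher in every tumor than in any normal liver. The brightest probe, A_52_P193301, read 0.142, 0.0620 and 0.136 in the normal livers and 0.496, 0.244 and 0.375 in the tumors. It was well above background in 1 of 3 normal livers and in all 3 tumors, and the groups did not overlap. The fitted log2 fold change was 1.75 (SE 0.40, adjusted p = 0.0180 in limma). With normexp correction, whose offset lifts dim signals, it was 0.49 and still called (adjusted p = 0.0457). It was not called without the filter on dim probes (adjusted p = 0.0550) or with the methods' t-test unpaired (adjusted p = 0.0753).

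The other probes of Chmp4c passed the background in each tumor but in none of the normal livers, so only lower bounds can be given. The bound divides the mean of the tumors by a stand-in for the normal livers. The stand-in is the lowest signal that counted as well above background on an array, or the signal of the probe where that was higher, with means taken on the log2 scale, and bounds were computed with the 75th-percentile scaling only. By it the tumors were at least 3.95-fold higher on A_51_P433000, which read 0.447, 0.371 and 0.543 in the tumors (adjusted p = 0.00449 in limma, and 0.0170 without the filter). They were at least 2.82-fold higher on A_66_P132515, which read 0.394, 0.266 and 0.312 (adjusted p = 1.75e-04 in limma, and 0.00114 without the filter). In both fits the normal livers entered with readings at background, so these p-values do not bear on the size of a change. On each of the 3 Chmp4c probes tumor 2 was the lowest tumor. Tumor 2 was the highest array for Chmp6.

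Chmp2a and Chmp2b are alternative subunits that join the filament late and bind Vps4. They differed in these tissues. Chmp2b, on chromosome 16 from 65539128 to 65562762, read 2.88, 3.0 and 2.87 in the normal livers and 5.59, 5.66 and 5.70 in the tumors. The tumors were almost identical to each other and stood clear of the normal livers. The log2 fold change was 0.95 (SE 0.10, 95% confidence interval 0.72 to 1.19, adjusted p = 0.00135 in limma), a 1.94-fold rise. Over the 6 arrays its log2 values correlated with those of Chmp6 at 0.993, a description in which the arrays are shared and the gap between the groups sets most of the value.

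Chmp2a, on chromosome 7 from 13032006 to 13034777, read 18.2, 19.1 and 20.8 in the normal livers and 19.5, 17.7 and 19.2 in the tumors. The groups overlapped, and the log2 fold change was -0.04 (SE 0.11, 95% confidence interval -0.31 to 0.22, adjusted p = 0.791 in limma). With spike-in scaling, quantile normalization or normexp its sign turned, without a call. The difference in log2 fold change between Chmp2b and Chmp2a was not tested, but their 95% confidence intervals did not overlap.

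Since one of these paralogs rose and the other did not pass the test, the starts of both genes are shown side by side. RefSeq promoter windows of 250 bases before to 50 after the gene start were given for 5 of the 9 genes, Chmp1a, Chmp2a, Chmp2b, Chmp4b and Chmp5. The motif GCGCNNGCGC, which reads the same on both strands and holds the core recognized by the transcription factor Nrf1, was searched after the windows had been read. It was the only motif searched. It occurred in Chmp2a, Chmp2b and Chmp5, of which Chmp2b alone rose, and in 6.23% of all 32851 windows. As the windows had been read before the search, the matches are no evidence of enrichment over that share. Windows of like CpG content were not compared. The windows below are cut at 30 bases after the start and run 5′ to 3′ on the minus strand, where both genes lie, with the motif in capitals:
Chmp2b chr16:65562733-65563012: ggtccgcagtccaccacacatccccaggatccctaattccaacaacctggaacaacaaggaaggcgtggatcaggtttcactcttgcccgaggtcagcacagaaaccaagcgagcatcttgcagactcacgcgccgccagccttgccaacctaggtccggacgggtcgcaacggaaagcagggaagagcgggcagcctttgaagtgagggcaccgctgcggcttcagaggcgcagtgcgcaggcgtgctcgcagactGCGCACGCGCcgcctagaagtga
Chmp2a chr7:13034748-13035027: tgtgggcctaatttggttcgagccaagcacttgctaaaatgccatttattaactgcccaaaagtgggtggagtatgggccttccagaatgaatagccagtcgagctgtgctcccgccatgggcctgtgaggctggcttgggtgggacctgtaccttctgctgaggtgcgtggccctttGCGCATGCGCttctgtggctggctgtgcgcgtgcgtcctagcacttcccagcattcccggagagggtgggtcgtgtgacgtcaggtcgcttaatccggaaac
The motif began 7 bases after the start in Chmp2b and 72 bases before it in Chmp2a. The windows of 300 bases hold 22 CpG dinucleotides in Chmp2b and 17 in Chmp2a, with a median of 7 over all windows. A match describes the letters only.

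Chmp1a, Chmp1b and Chmp5 act late or as regulators. Chmp1 proteins recruit Vps4 and the microtubule-severing ATPase spastin, and Chmp5 binds Vta1, the cofactor of Vps4. None of them passed the test. Chmp1a, on chromosome 8 from 123204261 to 123212788 and read by a probe with 10 spots on each array, had expression values of 11.5, 11.2 and 11.5 in the normal livers and 11.2, 10.4 and 12.8 in the tumors. Its log2 fold change was within 0.01 of 0, with a 95% confidence interval of -0.28 to 0.28 (adjusted p = 0.993 in limma).

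Chmp5, on chromosome 4 from 40948553 to 40965302, read 20.8, 22.5 and 23.7 in the normal livers and 16.5, 17.6 and 20.1 in the tumors. The groups did not overlap, yet the log2 fold change of -0.31 (SE 0.12) missed the threshold (adjusted p = 0.102 in limma). Chmp1b read 1.68, 2.15 and 1.75 in the normal livers and 1.46, 1.66 and 1.63 in the tumors. Here normal liver 1 and tumor 2 nearly met, and the log2 fold change was -0.23 (SE 0.14, adjusted p = 0.243 in limma).

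Chmp7 starts ESCRT-III assembly at the nuclear envelope, where it binds the inner membrane protein Lemd2. The gene lies on chromosome 14 from 69716979 to 69732570. It read 8.88, 8.23 and 12.7 in the normal livers and 11.3, 12.1 and 15.2 in the tumors. Normal liver 3 lay above the lower tumors, and the log2 fold change was 0.39 (SE 0.20, adjusted p = 0.187 in limma). Lemd2 had a log2 fold change of -0.11 (adjusted p = 0.426 in limma).

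The rest of the ESCRT machinery was covered by 7 lists with 38 genes, all of which were tested. Of these, 3 were higher in the tumors, 8 were lower and 27 were not called, so that 28.9% were called against 34.1% of all genes tested. The median log2 fold change was -0.20, beside -0.13 for all genes tested. The 3 higher genes were Vta1, Ptpn23 and Stambpl1, of which Stambpl1 passed the filter only through the tumors. The lower calls depended on the scaling of the arrays. With spike-in scaling, which raised the median of all tested probes by 0.18 on the log2 scale, 0 of the 38 genes were lower and 2 were higher, Vta1 and Stambpl1.

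**Figure D3:**
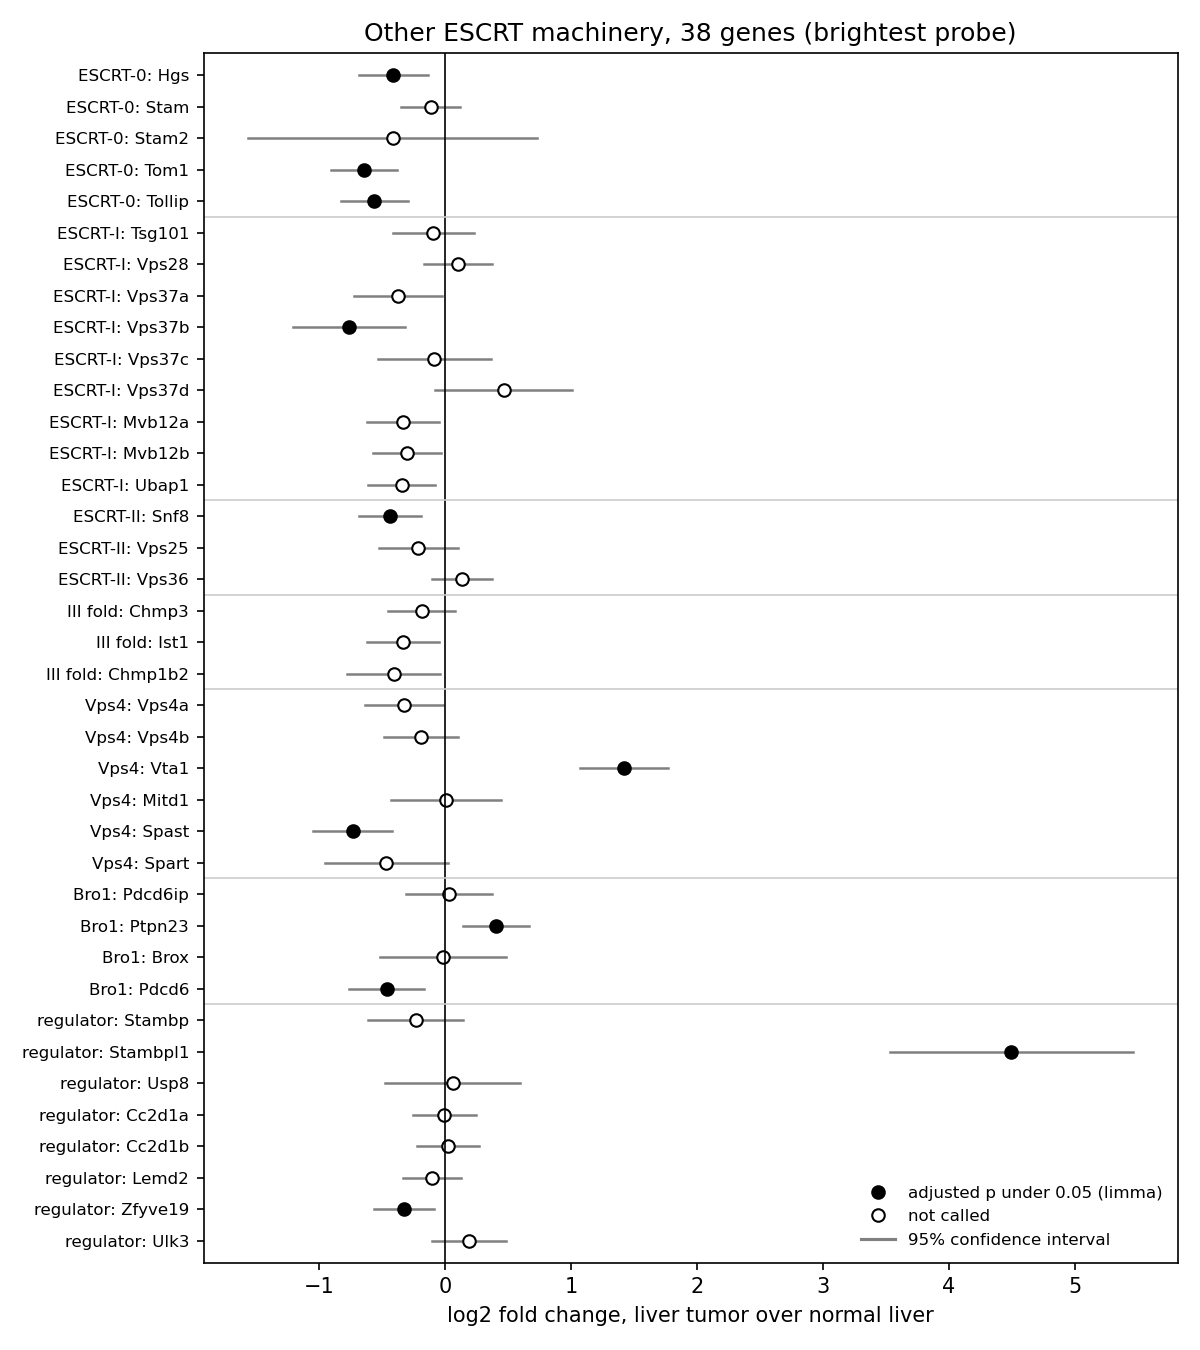
Log2 fold change of 38 genes of the ESCRT machinery outside the 9 family members, liver tumor over normal liver, by the brightest probe with its 95% confidence interval. Gray lines part the 7 lists, named before each gene, where III fold stands for other proteins with the ESCRT-III fold and regulator for deubiquitinases and regulators. Filled points have limma's adjusted p under 0.05; most genes lay between -0.8 and 0.5, and Vta1 and Stambpl1 stood apart. Stambpl1 did not pass the background in the normal livers.

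ESCRT-0 binds ubiquitinated cargo on endosomes. Of the 5 genes listed for ESCRT-0 and cargo recruitment, 3 fell and 2 were not called. Of all genes tested, 21.0% were called lower, and the difference from that share was not tested. Tom1, an adaptor for ubiquitinated cargo, read 18.9, 20.3 and 18.6 in the normal livers and 11.4, 12.7 and 12.9 in the tumors, and its log2 fold change was -0.65 (SE 0.11, adjusted p = 0.00683 in limma). Its partner Tollip fell by 0.56 on the log2 scale (adjusted p = 0.0114 in limma). Hgs, the core subunit of ESCRT-0, fell by 0.41 (adjusted p = 0.0356 in limma). The other tested probes of these genes also read lower, but not all were called. A further probe of Tom1 (-0.66, adjusted p = 0.00707 in limma) and of Tollip (-0.49, 0.0436) was called. Not called were A_55_P1957911 of Tom1 (-0.21, 0.219), A_55_P2176492 of Tollip (-0.45, 0.0568) and A_55_P2103857 of Hgs (-0.33, 0.0501). With 1 array left out in turn, Hgs was called in 1 of 6 fits, that without normal liver 1, and its highest adjusted p was 0.11, without normal liver 2. Hgs was also lost with normexp (-0.31, 0.0912) and quantile normalization (-0.24, 0.123), and without the filter on dim probes Hgs (0.141) and Tollip (0.0607) were not called. With spike-in scaling none of the 3 falls in this list was called. The log2 fold changes there were -0.47 for Tom1, -0.39 for Tollip and -0.24 for Hgs.

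ESCRT-I links ESCRT-0 to ESCRT-II. Of its 9 genes, Vps37b fell, with values of 5.17, 5.23 and 7.76 in the normal livers and 3.85, 3.32 and 3.35 in the tumors, and a log2 fold change of -0.76 (SE 0.19, adjusted p = 0.0233 in limma). Its call was lost without tumor 2 (adjusted p = 0.0687) and without tumor 3 (adjusted p = 0.0609). The other 8, among them the core subunit Tsg101, were not called. ESCRT-II is the complex that Chmp6 binds. Of its 3 genes, Snf8 fell by 0.44 on the log2 scale (adjusted p = 0.0201 in limma), and Vps25, the subunit in direct contact with Chmp6, had a log2 fold change of -0.21 (adjusted p = 0.250 in limma). The call of Snf8 was lost without normal liver 2 (adjusted p = 0.0738), normal liver 3 (0.0525) or tumor 1 (0.0546), with normexp (-0.29, 0.0635) or quantile normalization (-0.27, 0.0695), with spike-in scaling (-0.26, 0.499) and without the filter on dim probes (0.103). Vps37b was not called with spike-in scaling (-0.59, 0.131), without the filter (0.0792) or with the methods' t-test unpaired (0.0692). Chmp3, Ist1 and Chmp1b2, other proteins with the ESCRT-III fold, were not called. The Chmp1b2 probes were matched through a synonym of the annotation, and cross-hybridization from similar genes was not tested.

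Among the genes for Vps4 and filament disassembly, 1 of 6 rose and 1 fell. Vta1, which stimulates Vps4, read 1.66, 2.22 and 2.01 in the normal livers and 5.70, 5.19 and 4.79 in the tumors. The groups stood well apart, with a log2 fold change of 1.42 (SE 0.15, adjusted p = 0.00147 in limma). Its second probe, A_52_P485450, did not show this, with 1.11 to 1.16 in the normal livers, 1.03 to 1.11 in the tumors and a log2 fold change of -0.09 (adjusted p = 0.522 in limma). The probes of Vta1 therefore disagreed. Spast, the microtubule-severing ATPase spastin, fell by 0.74 (adjusted p = 0.00802 in limma). With spike-in scaling it was not called (log2 fold change -0.56, adjusted p = 0.130). Vps4a and Vps4b were not called, with log2 fold changes of -0.33 and -0.19.

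Bro1 domain proteins recruit Chmp4 without ESCRT-II. Ptpn23, one of them, rose by 0.40 on the log2 scale (SE 0.11, adjusted p = 0.0331 in limma). It was not called with spike-in scaling, although its log2 fold change was larger there (0.58, adjusted p = 0.0825). Pdcd6ip, which encodes Alix, was not called. Pdcd6, a calcium-binding partner of Alix, fell by 0.47 (adjusted p = 0.0296 in limma). With 1 array left out in turn each of these calls was made in 1 of 6 fits, without tumor 2 for Ptpn23 and without tumor 3 for Pdcd6, and the highest adjusted p, without normal liver 2, was 0.102 and 0.10. Without the filter on dim probes neither was called (0.139 and 0.119), and Pdcd6 was also lost with normexp (-0.34, 0.0603), quantile normalization (-0.29, 0.0843) and spike-in scaling (-0.29, 0.454). Of the 8 deubiquitinases and regulators, Stambpl1, a relative of the endosomal deubiquitinase Stambp, read 1.62, 1.22 and 0.979 in the tumors and did not pass the background in the normal livers. The tumors were at least 10.98-fold higher (adjusted p = 8.60e-04 in limma, and 0.00408 without the filter on dim probes), with normal livers that entered the fit at background. With normexp, whose offset shrinks the folds of dim probes, the fitted log2 fold change of Stambpl1 was 1.75, less than this bound, so that the bound holds for the 75th-percentile scaling only. Zfyve19, a regulator that works with Chmp4c in the abscission checkpoint, fell by 0.33 (adjusted p = 0.0440 in limma), a call that was lost with any 1 array left out (highest adjusted p = 0.129, without normal liver 2), with spike-in scaling (-0.15, 0.718), quantile normalization (-0.22, 0.125) or normexp (-0.29, 0.0693), and without the filter on dim probes (0.181).

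**Figure D4:**
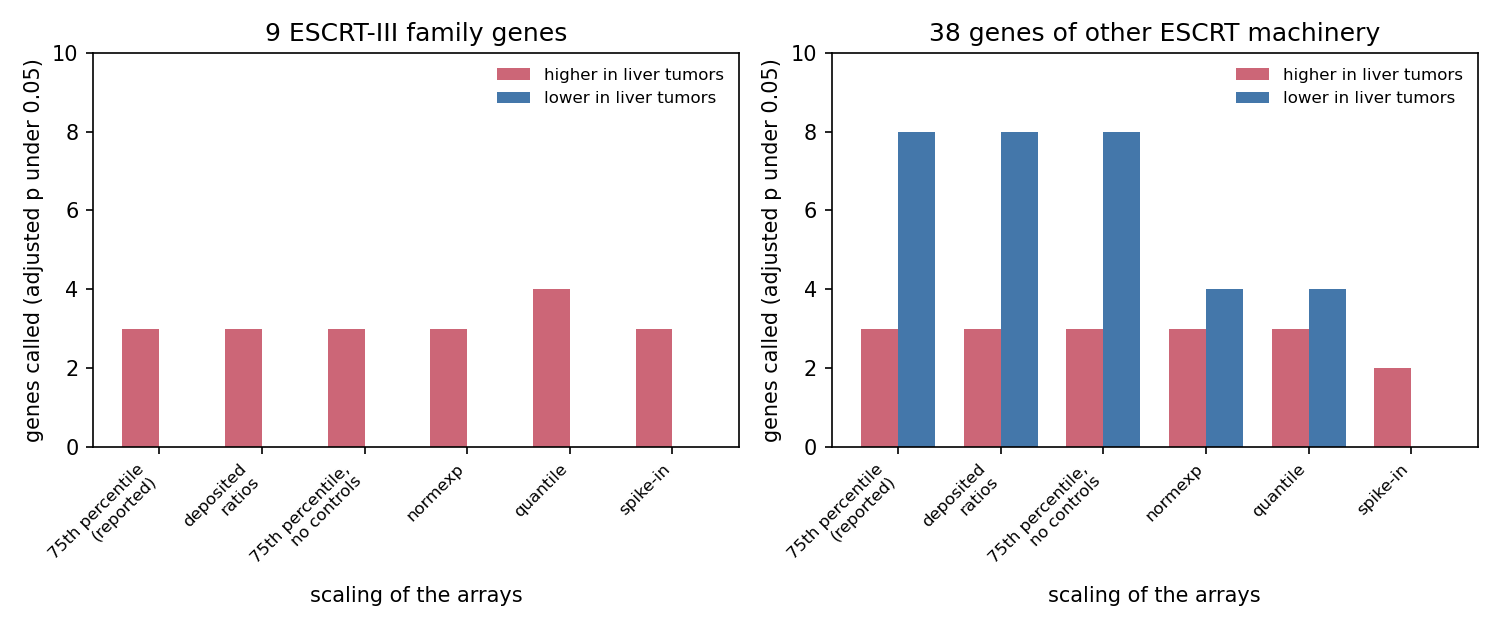
Number of genes with limma's adjusted p under 0.05, higher or lower in the liver tumors, under 6 ways of scaling or correcting the arrays. The bars of the 9 ESCRT-III family genes show 3 or 4 higher and 0 lower, a count that holds Chmp4c each time, although it passed the filter only through the tumors. The lower genes among the other ESCRT machinery went from 8 with the 75th percentile to 4 with normexp or quantile normalization and 0 with spike-in scaling. Of all tested probes, 33.1% were called with the 75th percentile and 20.6% with spike-in scaling, and the share of the calls that were higher went from 37.8% to 61.9%.

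ESCRT-III acts at the midbody, the bridge between dividing cells. Of 10 midbody and abscission genes 8 were tested, and 6 were higher and 1 lower in the tumors. Of all genes tested, 13.1% were called higher and 21.0% lower. Of the 6, Plk1, Anln, Ect2 and Prc1 passed the filter only through the tumors, so this count is not read as support. Kif23 and Aurkb did not pass the background on any array. Plk1, a mitotic kinase, read 0.0953, 0.165 and 0.0679 in the normal livers and 3.56, 3.01 and 1.92 in the tumors, and was well above background in 1 of 3 normal livers. Its fitted log2 fold change was 4.75 (adjusted p = 5.38e-04 in limma, and 0.00258 without the filter) and 2.48 with normexp, so its size was not fixed by these data. Prc1, which bundles the microtubules of the bridge, did not pass the background in the normal livers and was higher by at least 18.9-fold in the tumors (adjusted p = 8.50e-05 in limma, and 5.61e-04 without the filter), again with normal livers that entered the fit at background. With normexp, whose offset shrinks the folds of dim probes, the fitted log2 fold change of Prc1 was 2.38, less than this bound, so that the bound holds for the 75th-percentile scaling only. Cep55, the midbody protein that recruits Alix and ESCRT-I, fell instead on its brightest probe, from 0.370, 0.260 and 0.302 to 0.144, 0.206 and 0.117 (log2 fold change -1.02, and -0.48 with normexp, adjusted p = 0.0203 in limma). Its other probe, A_55_P2025033, did not pass the background on any array and was not tested, so the fall rests on a single dim probe. The call of Cep55 was lost without normal liver 1 (adjusted p = 0.0625), normal liver 3 (0.0551) or tumor 1 (0.0517), without the filter on dim probes (0.0655) and with the methods' t-test unpaired (0.0723). Of 9 proliferation markers 8 were called higher, 6 of them genes that passed the filter only through the tumors. The summed expression value of the 9 went from 11.3 to 12.9 in the normal livers to 19.6 to 24.4 in the tumors. The brightest, Pcna, was the one not called (log2 fold change 0.01, adjusted p = 0.963 in limma). It read 10.4 to 11.6 in the normal livers and 11.2 in each tumor, and so made up most of the sum in the normal livers. The part of the proliferation markers in the rise of Chmp6 and Chmp2b was not tested.

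Multivesicular bodies release their vesicles as exosomes when they fuse with the plasma membrane. Of 12 genes of this list 10 were tested, 4 were higher and 0 lower, and Rab27a and Rab27b were not tested. Beside this, 34.1% of all genes tested were called, 13.1% higher and 21.0% lower. The difference from these shares was not tested. The largest change was that of Cd63, a tetraspanin of late endosomes and exosomes, which read 7.24, 6.98 and 6.24 in the normal livers and 226, 158 and 165 in the tumors. Its log2 fold change was 4.73 (SE 0.17, adjusted p = 3.49e-05 in limma). The tetraspanin Cd9 rose by 1.40 on the log2 scale (adjusted p = 7.12e-04 in limma), the tetraspanin Cd81 by 0.45 (adjusted p = 0.0297) and the Alix-binding adaptor Sdcbp by 0.46 (adjusted p = 0.0342). Cd81 was lost with any 1 array left out (highest adjusted p = 0.0805, without tumor 2), and Sdcbp with any but tumor 2 (highest adjusted p = 0.0907, without normal liver 1). Neither was called with spike-in scaling (adjusted p of 0.0873 and 0.0626) or without the filter on dim probes (0.121 and 0.130), and over the mean of its probes the log2 fold change of Sdcbp was 0.30 (0.132). Over all alternatives both stayed above 0, with log2 fold changes of 0.37 to 0.65 for Cd81 and 0.30 to 0.64 for Sdcbp.

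ESCRT-III also repairs plasma membranes that are pierced by the pore formers of necroptosis and pyroptosis. Of 7 genes for such pores and their activators, 3 were higher and 0 lower. That is 42.9% called, beside 34.1% of all genes tested, 13.1% higher and 21.0% lower. The difference from these shares was not tested. Casp4, an inflammatory caspase that cleaves gasdermin D, read 1.12, 1.10 and 0.861 in the normal livers and 7.36, 3.91 and 3.52 in the tumors (log2 fold change 2.19, SE 0.29, adjusted p = 0.00345 in limma). Gsdme, a pore-forming gasdermin, rose by 1.28 (adjusted p = 5.38e-04 in limma), and Mlkl, the pore former of necroptosis, by 1.21 (adjusted p = 0.00445 in limma). Gsdmd was not called, with a log2 fold change of -0.41, but it was called without tumor 3 (-0.59, adjusted p = 0.0196 in limma).

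**Figure D5:**
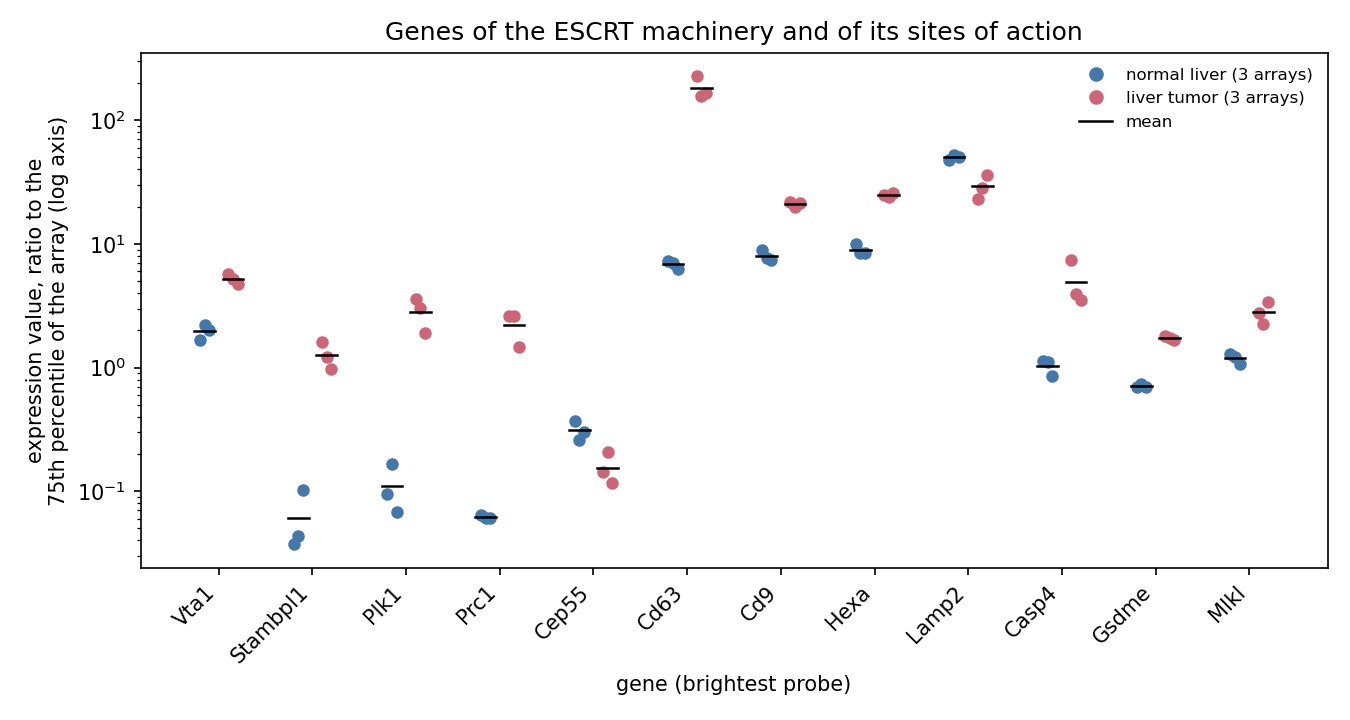
Expression value of 12 genes of the ESCRT machinery and of the places where it acts, on each of the 6 arrays, relative to the 75th percentile of the array, on a log axis. Points are arrays and bars are group means. Cd63 went from 6.24 to 7.24 in the normal livers to 158 to 226 in the tumors, while Cep55 and Lamp2 were lower in the tumors. Stambpl1 and Prc1 did not pass the background in the normal livers.

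The genes whose log2 values followed those of Chmp6 most closely over the 6 arrays, among 16481 genes well above background on all of them, were Ica1l (r = 0.999), Fmnl3 (0.998), Pde6c (0.997), Arhgef25 (0.997) and Rad51b (0.997). Ica1l read 3.34 to 4.06 in the normal livers and 9.35 to 9.90 in the tumors, close to the pattern of Chmp6. Pde6c moved much further, from 0.388 to 0.695 in the normal livers to 15.1 to 16.6 in the tumors. In all, 68 genes reached r of at least 0.99, and with 2 groups that stand apart such values describe the gap more than the arrays within a group.

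Markers of some other cell types, chiefly those of macrophages and of stellate cells and fibroblasts, differed between the groups as well. Bulk RNA cannot tell fewer cells of a type from less RNA per cell. The counts below stand beside 13.1% called higher and 21.0% called lower of all genes tested. Of 7 macrophage markers 5 fell, with a summed expression value of 100 to 172 in the normal livers and 51.2 to 84.4 in the tumors, and Cd5l was the brightest. Of 8 stellate cell and fibroblast markers 5 were called lower, among them Des, which passed the filter only through the normal livers, and 1 rose, and the sum went from 87.6 to 105 in the normal livers to 28.1 to 48.5 in the tumors, with Dcn brightest. Endothelial markers had 2 of 7 lower and 0 higher, with a sum of 104 to 117 and 80.4 to 89.0 and Clec4g brightest. Of the 2, Stab2 was called on its brightest probe only (log2 fold change -0.78). Its other probes had 0.02 and 0.09 (adjusted p = 0.947 and 0.807 in limma). Clec4g was called just under the threshold (log2 fold change -0.49, adjusted p = 0.0496 in limma). Of 4 cholangiocyte markers tested 0 were called, and their list summed to 2.33 to 2.93 and 1.89 to 2.19, with Spp1 brightest. Of 8 hepatocyte markers 1 was higher and 1 lower, with Alb brightest. The part of these markers in the changes of the ESCRT genes was not tested.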

How the data were processed

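Total RNA of 3 normal livers and 3 liver tumors was hybridized to 6 single-color Agilent arrays. The authors deposited scanner output per array, made with Feature Extraction (10.7.3.1 per the file headers, while the submitters' processing notes give 12.0.3.1), with a processed signal intensity that is background subtracted and spatially detrended. They also deposited a table of the ratio of that signal to the 75th percentile of the array, linear, which equalled the signal over the percentile of all spots, controls included. The quality flags deposited with the intensities mark spots well above background, saturated spots and outliers.

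The processed signals were divided by the 75th percentile of all spots of their array and put on the log2 scale. Control spots and outlier spots were left out, and spots of a probe were averaged. Tumors and normal livers were compared by limma (lmFit, eBayes, version 3.58.1 under R 4.3.3) for the 24901 probes that passed the background on every array of either group. The tests were two-sided, with Benjamini-Hochberg adjustment over all of these probes at a threshold of 0.05, which called 8239 probes (33.1%). Tables and exact tests were made in Python 3.11.15 with scipy 1.17.1, pandas 2.3.3 and numpy 2.4.6, and figures with matplotlib 3.10.9. The fit was tested on simulated data. Expression values with an SD are linear.

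Probes were named through RefSeq (GRCm38.p6) by accession for 27235 probes, by symbol for 3581 and by synonym for 565, and 24300 kept the name of the design. The members and the 11 pathway and 8 marker lists were chosen with earlier results of these data known. Named were all members, up to 2 called genes of each list and direction with the largest change, the 5 genes most like Chmp6 and the brightest marker of each cell type. Other called genes of a list were named after their values were seen, where they complete a count of 5 or fewer, as were Lemd2, Tsg101, Vps25, Vps4a, Vps4b, Pdcd6ip and Gsdmd. One gene that the rule names is not reported here.

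Alternatives were normexp correction with an offset of 50, quantile normalization, scaling by 8 spike-in probes, the percentile over non-control spots, the deposited ratios, no filter or a stricter filter on dim probes, eBayes with a trend, the methods' t-test unpaired and paired, the replicate number as a block, the mean of a gene's probes, and each array left out. The number of arrays limits the precision. Gene positions and promoter windows came from RefSeq tables of GRCm38.p6, and no whole genome sequence was used here.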

Additional observations from a re-analysis of the deposited data

How the results depend on the processing

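Chmp6 kept its direction under all 18 alternatives, with log2 fold changes of 1.42 to 1.71. It was called in all but the methods' t-test in its paired form (1.53, adjusted p = 0.0955). That test called 0 of the 9 family genes, 0 of the 38 genes of the other ESCRT machinery and 0 of all tested probes. Otherwise 2 to 4 family genes were called, and with any 1 array left out the count was 3 each time (lowest 3, highest 3). Chmp4c passed the filter only through the tumors, so its calls in these fits do not bear on its stability. Chmp4c was lost without the filter on dim probes, with the unpaired t-test and when probes had to be well above background on all 6 arrays, which removes its brightest probe. Of all tested probes, 8239 were called, 5125 with spike-in scaling and 4674 without the filter, and 4954 to 7172 with 1 array left out, the lowest without normal liver 2. Among the called probes 37.8% were higher in the tumors, and 61.9% with spike-in scaling. Of the other ESCRT machinery 11 genes were called, 7 with normexp, 7 with quantile normalization, 2 with spike-in scaling, 4 without the filter, and 6 to 8 with 1 array left out: 6 without normal liver 2, normal liver 3 or tumor 1, and 7 without tumor 2. Directions turned for genes that were never called or called once. Chmp1a ranged from -0.079 without tumor 3, and -0.010 without normal liver 2, to 0.068 without tumor 2 with 1 array left out, and was 0.081 with normexp, 0.11 with quantile normalization and 0.18 with spike-in scaling. Chmp2a went to 0.034 with normexp, 0.11 with quantile normalization and 0.13 with spike-in scaling, and ranged from -0.088 without normal liver 1 to 0.0093 without normal liver 3. The mean of the Chmp4b probes was -0.056. Lemd2 went to 0.036 with quantile normalization and 0.069 with spike-in scaling. The cause of these changes was not tested.

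With the replicate number as a block, 7 genes of the other machinery and 3 family genes were called. Deviations from the group means correlated at 0.07, 0.13 and 0.05 for same-numbered samples, not over 0.1 in every pair, and the labels name no shared animal, litter or day, so the number was not taken as a pairing.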

Other observations

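Lysosomes receive the vesicles that ESCRT-III forms. Of 16 lysosome and autophagy genes 2 were higher, 4 lower and 10 not called, with a median log2 fold change of -0.22, beside -0.13 for all genes tested. The share called was 37.5%, with 12.5% higher and 25.0% lower. That was near the 34.1% of all genes tested, with 13.1% higher and 21.0% lower. Hexa, the alpha subunit of beta-hexosaminidase, read 10.05, 8.46 and 8.45 in the normal livers and 24.7, 24.0 and 25.8 in the tumors, and its log2 fold change was 1.47 (SE 0.12, adjusted p = 5.76e-04 in limma). The protease Ctsd rose by 0.47 on the log2 scale (adjusted p = 0.0169 in limma). Lamp2, a membrane protein of lysosomes, read 47.3, 51.9 and 50.9 in the normal livers and 23.0, 28.3 and 36.2 in the tumors, so that the log2 fold change was -0.80 (SE 0.18, adjusted p = 0.0172 in limma), and its second probe was called lower as well. Ctsl and the autophagy receptor Sqstm1 fell by 0.58 and 0.57, with limma's adjusted p of 0.0196 and 0.0190. Of these calls, that of Hexa held with any 1 array left out. Lamp2 was lost without normal liver 2 (adjusted p = 0.0596), normal liver 3 (0.0517) or tumor 2 (0.0506), and Ctsd without normal liver 1 (0.0502), normal liver 3 (0.0514) or tumor 2 (0.0593). Ctsl was lost without normal liver 2 (0.0721), normal liver 3 (0.0551) or tumor 2 (0.0590), and Sqstm1 without normal liver 2 (0.0707), tumor 1 (0.0518) or tumor 2 (0.0627). With spike-in scaling, or without the filter on dim probes, only Hexa was called of these 5 genes. With spike-in scaling the log2 fold change was -0.62 for Lamp2 and 0.64 for Ctsd. Over all alternatives it was -0.65 to -0.40 for Ctsl and -0.70 to -0.40 for Sqstm1.

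Of the other marker lists, 1 of 4 tested lymphocyte markers was called, beside 34.1% of all genes tested. This was Cd4, whose brightest probe read 58.8 to 60.9 in the normal livers and 134 to 235 in the tumors (log2 fold change 1.59, adjusted p = 0.00320 in limma), while its second probe had a log2 fold change of -0.48 (adjusted p = 0.0383). The second probe was dim, passed the filter only through the normal livers and was not called without it (adjusted p = 0.134). Cd8a did not pass the background on any array. Of 5 neutrophil markers tested 0 were called. S100a9, the brightest of them, read 12.9 in tumor 1 and 2.80 to 4.51 in the other tumors, against 2.43 to 4.06 in the normal livers.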
